A study of Homo sapiens with 24 samples.

Results

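Tumor cells can hold back T cells, natural killer cells and macrophages through ligands on their surface, and 10 genes encoding such checkpoint ligands are described here in clear cell renal cell carcinoma cells. They are *CD274* (PD-L1), *PDCD1LG2* (PD-L2), *CD276* (B7-H3), *VTCN1* (B7-H4), *LGALS9* (galectin-9), *CD47*, *PVR* (CD155), *NECTIN2* (CD112), *VSIR* (VISTA) and *CEACAM1*. They were chosen by gene symbol out of 39321 genes in the count table, and all 10 were found. RNA-Seq was available for 24 libraries from A498 and 786-O, both lines established from human kidney carcinomas of the clear cell type (the labels hyphenate the first name and put the digit for the letter O in the second). Each line was transfected with a pooled non-targeting control siRNA (Cnsi) or with pooled siRNA to PD-L1 (PD-L1si), each at 20 nM. After 24 hours it was left without IFNγ or given IFNγ at 50 ng/mL for 24 hours. This gave 4 groups per line (Cnsi and PD-L1si, each without and with IFNγ) of 3 replicates each, and every group, the controls included, had been transfected. The labels call the PD-L1 groups knockout, whereas the study's methods describe transient siRNA, which lowers but does not remove a transcript. The comparisons asked whether the other ligands changed when *CD274* was silenced, with or without IFNγ, and whether they answered IFNγ to the same extent after this silencing.

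PD-L1 and PD-L2 belong to the B7 family and both bind PD-1, the receptor whose engagement restrains activated T cells. B7-H3, B7-H4 and VISTA are further B7-like proteins that can inhibit T cells, and the receptors of the first pair are less certain. Galectin-9 is a secreted lectin that binds TIM-3 among other partners, CD47 signals to SIRPα on macrophages to prevent engulfment, PVR and NECTIN2 bind the inhibitory receptor TIGIT as well as the activating receptor CD226, and CEACAM1 binds itself on neighboring cells. IFNγ from activated T cells signals through its receptor and the kinases JAK1 and JAK2, induces IRF1 among other genes, and raises PD-L1 in many tumors.

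The 2 genes for the PD-1 ligands are neighbors on the short arm of chromosome 9 (GRCh38, GENCODE annotation), *CD274* (ENSG00000120217.14) at chr9:5450503-5470566 and *PDCD1LG2* (ENSG00000197646.8) at chr9:5510531-5571282, both on the plus strand. The counts were made over the exons of each gene. *CD276* (ENSG00000103855.18) is at chr15:73683966-73714514, *VTCN1* (ENSG00000134258.17) at chr1:117143587-117210960, *CD47* (ENSG00000196776.16) at chr3:108043091-108091862 and *VSIR* (ENSG00000107738.20) at chr10:71747556-71773520. *LGALS9* (ENSG00000168961.17) is at chr17:27629798-27649560 and shares 294 exon bases with another annotated gene on its strand. Chromosome 19 carries *PVR* (ENSG00000073008.15) at chr19:44643798-44666162, *NECTIN2* (ENSG00000130202.10) at chr19:44846175-44889223 and *CEACAM1* (ENSG00000079385.22) at chr19:42507304-42561234. *PVR* shares 2028 exon bases with 1 gene and 121 with another, *NECTIN2* 128 and *CEACAM1* 185 with a transcript of the opposite strand, and how reads there were divided was not tested.

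The promoters of the 3 members that were raised over 10-fold by IFNγ in both lines and carried a match to an interferon regulatory factor (IRF) type motif are shown, so that the matches can be read in their sequence. They come from RefSeq (GRCh38.p14), run from 250 bases before to 50 bases after the annotated start and are written 5′ to 3′ on the strand of the gene. RefSeq promoters were found for 9 of the 10 members, not for *PDCD1LG2*. The motif searched, on both strands, was GAAA, any 2 bases and GAAA. Capitals mark the matches.
CD274, chr9:5450292-5450591, plus strand: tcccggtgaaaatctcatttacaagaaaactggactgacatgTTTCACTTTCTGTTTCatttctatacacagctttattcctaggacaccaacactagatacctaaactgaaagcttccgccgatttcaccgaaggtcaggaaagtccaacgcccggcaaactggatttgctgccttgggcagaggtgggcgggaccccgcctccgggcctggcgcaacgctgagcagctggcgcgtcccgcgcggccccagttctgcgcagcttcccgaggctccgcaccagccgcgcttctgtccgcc
LGALS9, chr17:27630938-27631237, plus strand: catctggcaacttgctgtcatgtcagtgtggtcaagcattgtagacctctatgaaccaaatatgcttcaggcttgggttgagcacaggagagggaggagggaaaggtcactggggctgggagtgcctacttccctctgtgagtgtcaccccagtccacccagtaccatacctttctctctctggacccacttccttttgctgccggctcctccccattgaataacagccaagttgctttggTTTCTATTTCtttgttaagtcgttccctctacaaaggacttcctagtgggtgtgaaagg
CEACAM1, chr19:42528432-42528731, minus strand: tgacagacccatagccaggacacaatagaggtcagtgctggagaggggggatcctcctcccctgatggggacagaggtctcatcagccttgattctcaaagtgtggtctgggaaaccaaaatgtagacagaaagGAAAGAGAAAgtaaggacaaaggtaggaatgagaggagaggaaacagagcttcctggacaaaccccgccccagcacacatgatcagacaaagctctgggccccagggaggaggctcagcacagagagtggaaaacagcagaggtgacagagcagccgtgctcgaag
In *CD274* the IRF type matched at 2 overlapping positions on the minus strand, starting 208 and 202 bases before the start. *LGALS9* had 1 IRF-type match, 9 bases before its start, and *CEACAM1* had 1, at 116 bases before. No promoter of *CD276*, *VTCN1*, *CD47*, *PVR*, *NECTIN2* or *VSIR* held this pattern in this window. Over all 35116 promoters of this length, 3.57% held it. A match is a run of letters and not a measured binding site.

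Total counts ran from 19256316 to 27907526 in A498-labelled libraries and from 26807875 to 30350461 in 786-O-labelled libraries. The line names are those of the labels, because the values the study reports for A498 resemble those of 786-O-labelled libraries and the reverse, so that the names of the lines may be exchanged. The lines were sequenced on different instruments, line and instrument cannot be told apart, and levels were therefore compared within a line. In 786-O-labelled libraries, 1475 genes with more than 1000 counts in the other line were at 0 throughout, among them *JAK2* and *MYC* but none of the 10 ligands, and nothing is drawn from those rows. Kidney carcinoma markers were present, with *PAX8* at a group mean of 89.8 to 247.1 CPM (counts scaled to the size of the library), while *PAX2* and *MME* were among the rows at 0 in 786-O-labelled libraries. Of 11 immune markers, *CD3E* and *MS4A1* were not in the table, and the summed level of the others was 0.369 to 0.927 CPM in A498-labelled libraries. In 786-O-labelled libraries it was 4.46 to 6.72 CPM without and 11.2 to 12.7 CPM with IFNγ, of which *ITGAM* gave a group mean of 4.19 to 11.8, while *CD3D* and *CD8A* were at 0. The part of this in the results was not tested. Within groups the replicates varied beyond counting noise, most in 786-O-labelled libraries, where Cnsi replicate 3, Cnsi IFNγ replicate 1 and PD-L1si replicate 1 each stood apart from the other replicates of their group (chi-square per degree of freedom 10.1 to 24.3, against 1.97 to 5.27 between the others). Values with 1 of these left out are given for part of the results. The small differences of *PVR*, *VSIR* and *CD47* with PD-L1si in 786-O-labelled libraries are given with all libraries only. The labels do not say whether replicates were separate cultures, so that p-values measure the spread between these libraries, and in bulk RNA less RNA per cell and fewer expressing cells cannot be told apart.

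The silencing itself was read from *CD274*. In A498-labelled libraries with IFNγ it stood at 190.6, 199.1 and 191.3 CPM in Cnsi and at 26.9, 28.5 and 27.7 CPM in PD-L1si, which left 14.3% of the control level. In 786-O-labelled libraries the same groups held 55.7, 59.6 and 65.8 against 32.7, 30.8 and 30.6 CPM, which left 52.0%. The groups did not overlap in either line, and the residual transcript was larger in 786-O-labelled libraries. A gene was counted as changed at an adjusted p-value under 0.05 in edgeR's quasi-likelihood test (Benjamini-Hochberg over all genes) and a log2 fold change beyond 0.5, up or down.

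*PDCD1LG2*, which encodes the second ligand of PD-1, was the only member besides *CD274* to change with PD-L1si, and it did so in A498-labelled libraries. Under IFNγ its level was 87.9, 78.1 and 76.4 CPM in the Cnsi libraries and 35.3, 39.4 and 34.9 CPM in the PD-L1si libraries. Every silenced library was below every control library. The log2 fold change was -1.15 (SE 0.0565, edgeR adjusted p = 6.32e-18), so that 45.2% of the control level remained, against 14.3% for *CD274*. Without IFNγ the gene was rare, with 24, 29 and 28 counts in Cnsi and 8, 6 and 7 counts in PD-L1si, again without overlap. The log2 fold change was -2.02 (SE 0.313, edgeR adjusted p = 2.95e-06). Across the alternatives tried, each library left out in turn included, it stayed past the threshold and ran from -1.21 to -1.07 under IFNγ and from -2.09 to -1.96 without it. These values are of RNA, whereas the study reports from immunoblots that the PD-L1 siRNA left PD-L2 protein unaltered.

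In 786-O-labelled libraries, *PDCD1LG2* gave no such difference under IFNγ. The Cnsi IFNγ libraries held 5.34, 8.84 and 8.55 CPM and the PD-L1si IFNγ libraries 7.94, 6.45 and 6.78 CPM, so that the groups overlapped (log2 fold change -0.10, SE 0.15, edgeR adjusted p = 0.734). The overlap rested on Cnsi IFNγ replicate 1, 1 of the libraries that stood apart, as both other controls lay above all 3 silenced libraries. Without it the value was -0.304, which did not pass the test either. Without IFNγ there were 6, 4 and 2 counts against 1, 1 and 3, which is too few to show a change of the size seen in the other line (-1.22, SE 0.827, edgeR adjusted p = 0.397). The difference between the lines under IFNγ, tested in a model of all 24 libraries as 786-O minus A498 labels, was 1.06 (SE 0.152, edgeR adjusted p = 6.03e-06). Without IFNγ it was 0.81 (SE 1.13, adjusted p = 0.739).

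Counted over all members, 2 of 10 changed with PD-L1si under IFNγ in A498-labelled libraries, where 10.1% of 20916 genes did, and 2 of 10 without IFNγ, where 8.48% did. In 786-O-labelled libraries only *CD274* changed, under IFNγ against a background of 3.03% of 21209 genes and without IFNγ against 2.81%. Since *CD274* was the target, the other 9 ligands gave 1 change in each comparison of the first line and 0 in the second. DESeq2 gave the same 1, 1, 0 and 0. At an unadjusted p under 0.05 without a limit on size, edgeR gave 5 of the 9 in A498-labelled libraries under IFNγ and 7 without it. In 786-O-labelled libraries it gave 3 of the 9 under IFNγ (*CD47*, *PVR* and *VSIR*) and 1 without it (*VSIR*). No share of all genes at this unadjusted rule is given here, so these counts cannot be set against a background. The median log2 change of the 9 was -0.18 under IFNγ and -0.34 without it in A498-labelled libraries, where the median of all genes was 0.011 and -0.0031, and 0.038 and 0.0010 in 786-O-labelled libraries.

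**Figure D1:**
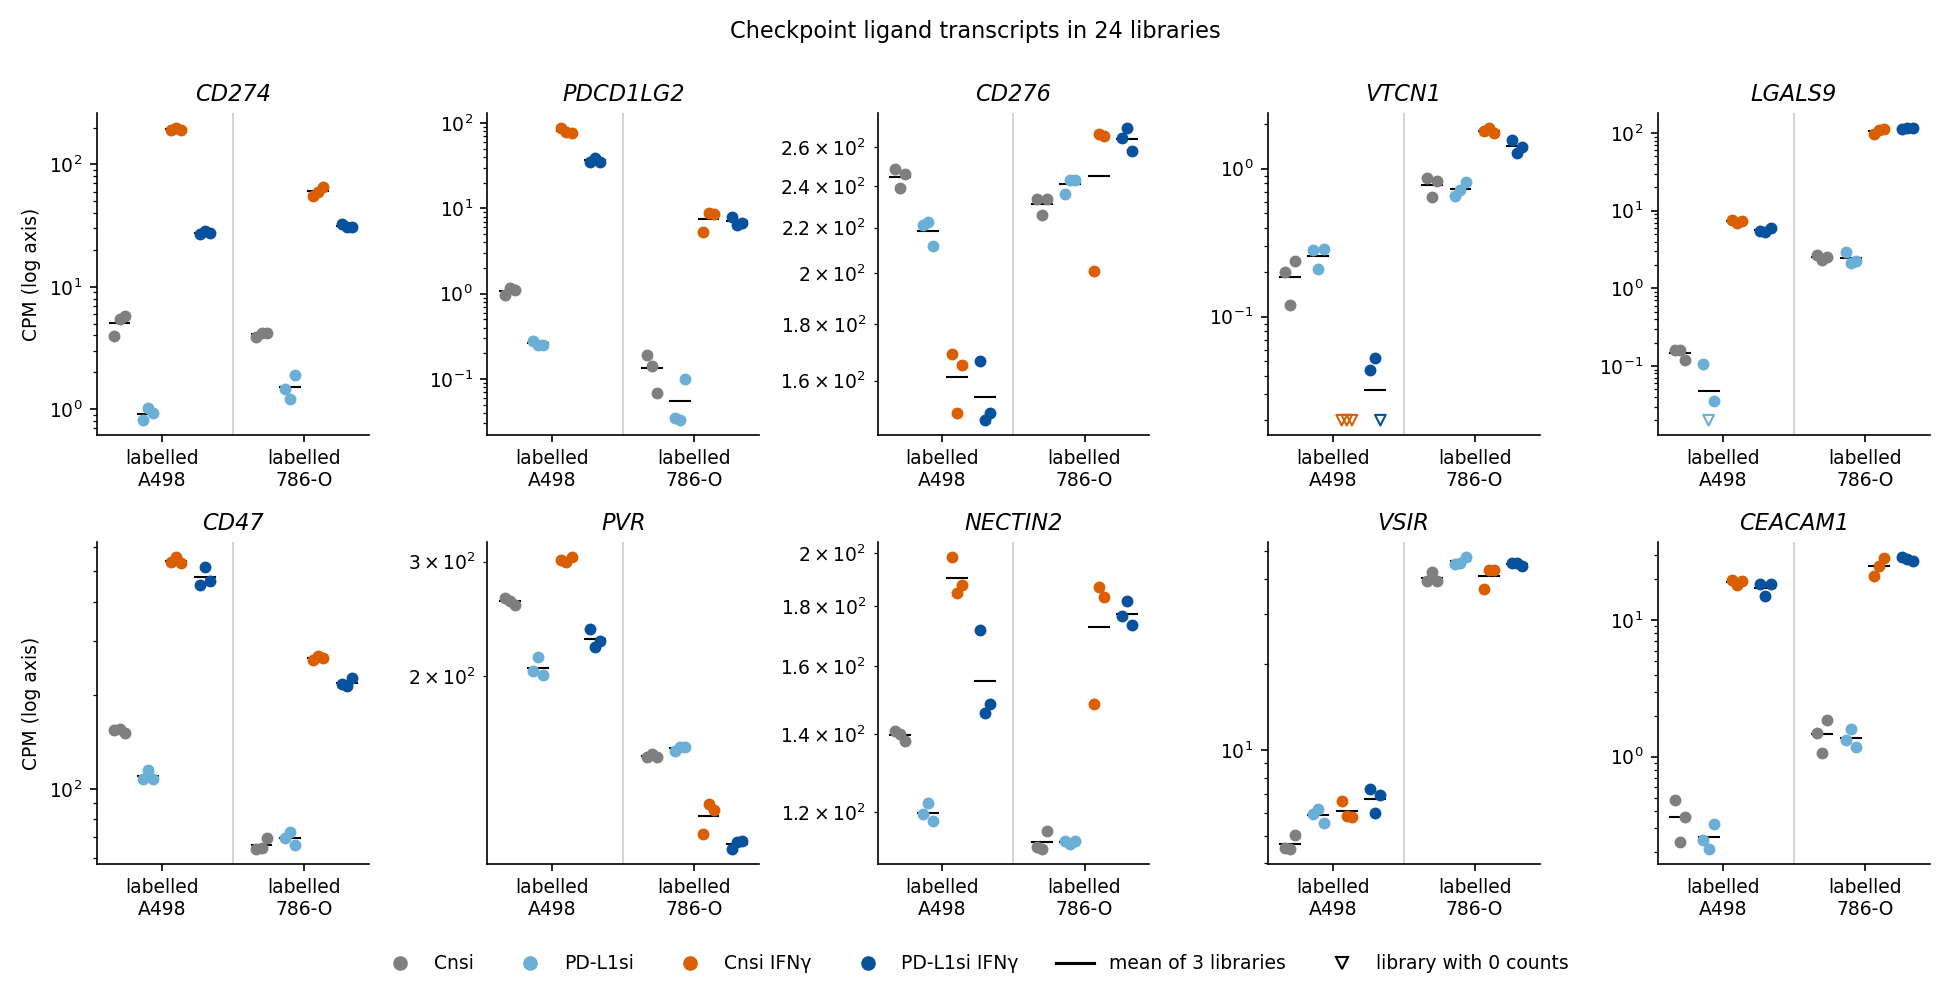
Level of each ligand in every library, in CPM on a log axis that differs between panels, with the 4 groups of A498-labelled libraries on the left of each panel and 786-O-labelled libraries on the right. Points are libraries, bars are means of 3 and open triangles mark libraries with 0 counts. *PDCD1LG2* is lower in PD-L1si than in Cnsi at both IFNγ levels on the left of its panel, and the groups overlap under IFNγ on the right.

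The remaining members did not pass both limits, and several of them differed by small amounts at the adjusted p alone. By that looser rule 34.1% of all genes passed under IFNγ and 30.8% without it in A498-labelled libraries, and 14.0% and 12.8% in 786-O-labelled libraries, so that the counts of 6, 7, 3 and 2 members have to be read against a broad background. The TIGIT ligands were among them. *PVR* under IFNγ was at 302.0, 299.6 and 305.3 CPM in Cnsi and at 236.7, 221.9 and 226.8 CPM in PD-L1si of A498-labelled libraries (log2 fold change -0.40, SE 0.0394, edgeR adjusted p = 2.04e-10). *NECTIN2* in the same groups was at 198.5, 184.7 and 187.7 against 171.8, 146.0 and 148.5 CPM (-0.29, SE 0.0474, adjusted p = 6.21e-06). For both genes no silenced library reached a control library, and the differences without IFNγ had the same sign, at -0.34 (SE 0.0393) and -0.22 (SE 0.0478).

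In 786-O-labelled libraries the TIGIT ligands differed by less. *PVR* under IFNγ held 114.3, 127.3 and 124.6 CPM in Cnsi and 108.5, 111.3 and 111.8 CPM in PD-L1si (-0.14, SE 0.0466, edgeR adjusted p = 0.0408). The groups did not overlap, but the gap to the nearest control, replicate 1, was small. *NECTIN2* overlapped, at 148.4, 186.9 and 183.3 against 176.7, 181.8 and 173.6 CPM (0.038, SE 0.0608, adjusted p = 0.759).

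*CD47*, which encodes the signal that keeps macrophages from engulfing a cell, stayed within the fold threshold with PD-L1si but passed the adjusted p, on the lower side, in 3 of the 4 comparisons. Without IFNγ A498-labelled libraries held 154.5, 155.8 and 151.0 CPM in Cnsi and 108.0, 115.3 and 108.1 CPM in PD-L1si (-0.48, SE 0.0457, edgeR adjusted p = 1.39e-10). The groups were well apart although the value stayed under 0.5. Under IFNγ they held 536.5, 557.5 and 531.5 against 454.0, 517.7 and 467.7 CPM (-0.18, SE 0.0429, adjusted p = 0.0013). In 786-O-labelled libraries the difference was seen with IFNγ and not without it. Under IFNγ the levels were 259.4, 266.9 and 264.0 against 217.6, 214.2 and 226.7 CPM (-0.26, SE 0.0471, adjusted p = 0.000334), and without it 64.2, 64.4 and 69.7 against 69.6, 72.8 and 66.1 CPM (0.073, SE 0.0502, adjusted p = 0.404), where the groups overlapped.

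The B7-like members other than the PD-1 ligands moved little with PD-L1si. *CD276* under IFNγ had overlapping groups in both lines, with -0.060 (SE 0.0477, edgeR adjusted p = 0.362) in A498-labelled libraries and 0.11 (SE 0.0795, adjusted p = 0.418) in 786-O-labelled libraries. Without IFNγ it gave -0.16 (SE 0.0461, adjusted p = 0.00596) and 0.060 (SE 0.0794, adjusted p = 0.709). *VSIR* was the only member with positive values in all 4 comparisons. It stood at 4.55, 4.49 and 5.02 CPM in Cnsi and at 5.95, 6.23 and 5.55 CPM in PD-L1si of A498-labelled libraries without IFNγ (0.33, SE 0.107, adjusted p = 0.0163), and at 39.2, 42.0 and 39.4 against 45.1, 45.2 and 47.7 CPM in 786-O-labelled libraries (0.20, SE 0.0592, adjusted p = 0.028). Neither pair of groups overlapped, and under IFNγ the values were 0.15 (SE 0.106, adjusted p = 0.298) and 0.14 (SE 0.0598, adjusted p = 0.115). *VTCN1* had at most 8 counts per library in A498-labelled libraries, too few for a comparison, and in 786-O-labelled libraries gave -0.35 (SE 0.186, adjusted p = 0.239) with and -0.086 (SE 0.234, adjusted p = 0.88) without IFNγ.

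*LGALS9* and *CEACAM1*, both low without IFNγ, were not changed by PD-L1si by the rule used. In A498-labelled libraries under IFNγ, *LGALS9* was at 7.50, 7.02 and 7.36 CPM in Cnsi and at 5.45, 5.33 and 5.91 CPM in PD-L1si (-0.39, SE 0.11, edgeR adjusted p = 0.00543). In 786-O-labelled libraries it was at 96.9, 109.7 and 112.9 against 113.4, 116.4 and 116.6 CPM (0.12, SE 0.0585, adjusted p = 0.208). Without IFNγ *LGALS9* had 4, 4 and 3 counts in Cnsi and 3, 0 and 1 in PD-L1si of A498-labelled libraries, and the fitted log2 change of -1.46, which rests on these few counts, did not pass the test (SE 0.703, edgeR adjusted p = 0.127). Under IFNγ the silenced groups lay below the controls in the first line and above them in the second, with no overlap in either. *CEACAM1* under IFNγ overlapped in both lines, with -0.13 (SE 0.0785, adjusted p = 0.233) and 0.18 (SE 0.0965, adjusted p = 0.251). *LGALS9B* and *LGALS9C*, close copies of *LGALS9* that could share its reads, held few counts, and adding them to it changed no call.

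**Figure D2:**
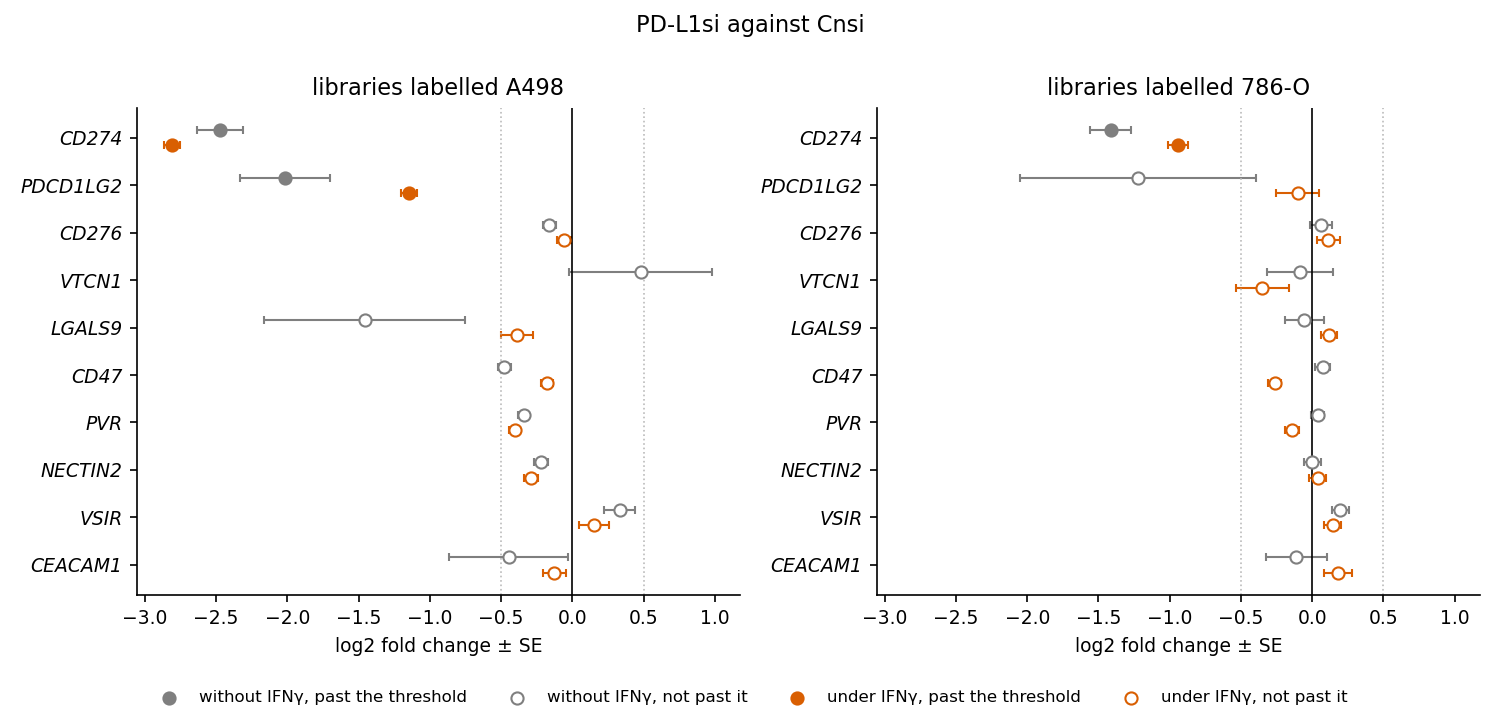
Log2 fold change of PD-L1si against Cnsi for each ligand, with its SE as the bar, without IFNγ (gray) and under IFNγ (orange), in A498-labelled libraries (left) and 786-O (right). Filled points passed the adjusted p and the fold threshold, which the dotted lines mark, and *VTCN1* under IFNγ in A498-labelled libraries is not drawn because its control libraries had 0 counts. Only *CD274* and, on the left, *PDCD1LG2* are filled.

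Expressed per kilobase of exon (RPKM), which allows genes to be compared, PD-L2 was the more abundant of the PD-1 ligand transcripts after silencing under IFNγ in A498-labelled libraries, but not without IFNγ, where *CD274* was at 0.223 and *PDCD1LG2* at 0.107 RPKM in PD-L1si. Under IFNγ, *CD274* was at 47.1 ± 1.15 RPKM and *PDCD1LG2* at 33.2 ± 2.56 RPKM in Cnsi (SD, n = 3), and at 6.74 ± 0.190 and 15.0 ± 1.03 RPKM in PD-L1si. The share of *PDCD1LG2* in the sum of the pair went from 41.3% ± 2.16 to 69.0% ± 0.995, although its own level was lower. The sum of the pair was 80.3 ± 2.29 RPKM in Cnsi and 21.8 ± 1.20 RPKM in PD-L1si. In 786-O-labelled libraries the pair summed to 17.8 ± 1.92 and 10.5 ± 0.599 RPKM, and the share of *PDCD1LG2* was 17.3% ± 3.10 and 27.5% ± 1.5. With the longest transcript as the length the shares were 38.4% and 66.3% in the first line and 15.6% and 25.1% in the second. The RPKM of the other 8 ligands summed to 181.0 ± 2.88 in Cnsi IFNγ and 155.3 ± 4.35 in PD-L1si IFNγ of A498-labelled libraries, and to 166.2 ± 16.4 and 167.5 ± 1.68 in 786-O-labelled libraries.

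**Figure D3:**
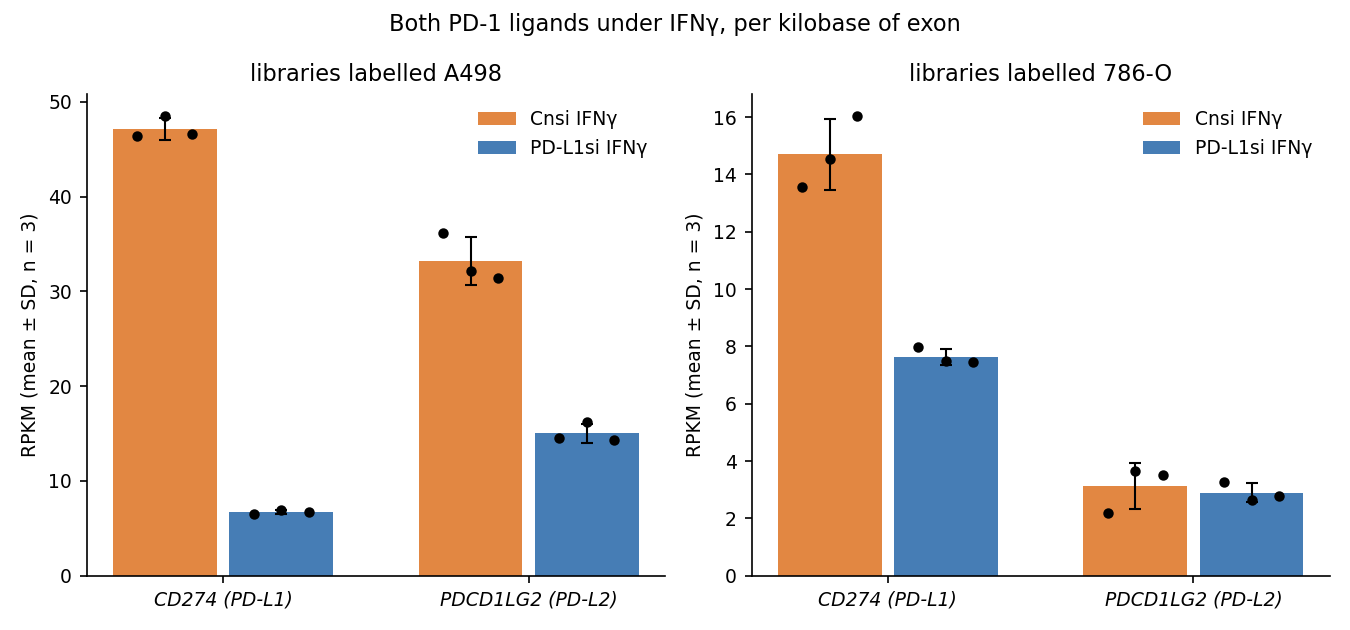
Level of *CD274* and *PDCD1LG2* under IFNγ in RPKM on a linear axis, in Cnsi (orange) and PD-L1si (blue), in A498-labelled libraries (left) and 786-O (right). Bars are means, error bars the SD of 3 libraries and points the libraries. On the left *PDCD1LG2* is below *CD274* in Cnsi and above it in PD-L1si, and on the right it is below *CD274* in both.

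IFNγ raised the transcripts of PD-L1, PD-L2, galectin-9, CD47 and CEACAM1 in both lines. In Cnsi cells 7 of 10 members changed with IFNγ in A498-labelled libraries, 5 higher and 2 lower, against 36.8% of all genes tested. In 786-O-labelled libraries 7 of 10 changed, all higher, against 18.5%. These comparisons share the Cnsi libraries with those of PD-L1si above. *PDCD1LG2* went from 0.957, 1.15 and 1.12 CPM to 87.9, 78.1 and 76.4 CPM in A498-labelled libraries, a 74.8-fold increase (log2 6.22, SE 0.0982, edgeR adjusted p = 1.98e-34). In 786-O-labelled libraries it went from 0.192, 0.143 and 0.0686 to 5.34, 8.84 and 8.55 CPM (log2 5.75, SE 0.293, adjusted p = 3.39e-13). The difference between the lines was -0.49 with a wide error (SE 0.634, adjusted p = 0.569), as counts without IFNγ were low. *CD274* rose by 5.25 (SE 0.0687) and 3.89 (SE 0.0891) on the log2 scale.

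*LGALS9* rose 48.2-fold in A498-labelled libraries, from 0.159, 0.159 and 0.12 to 7.50, 7.02 and 7.36 CPM, and 42.0-fold in 786-O-labelled libraries, from 2.72, 2.32 and 2.54 to 96.9, 109.7 and 112.9 CPM. *CEACAM1* rose 52.1-fold in the first, from 0.479, 0.239 and 0.359 to 19.7, 18.0 and 19.2 CPM, and 16.7-fold in the second, from 1.5, 1.07 and 1.85 to 21.0, 25.2 and 28.5 CPM. Both genes carry an IRF-type match in the promoters printed above, but those were chosen for the match and for the rise with IFNγ. Match and rise therefore go together by choice there. *LGALS9* and *CEACAM1* both had at most 12 counts per library in A498-labelled libraries without IFNγ. *CD47*, already well expressed, rose 3.52-fold (log2 1.82, SE 0.0449, edgeR adjusted p = 2.47e-28) and 3.99-fold (log2 2.00, SE 0.0499, adjusted p = 2.03e-21).

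The B7-H3 and B7-H4 genes differed between the lines in their answer to IFNγ. *CD276* fell in A498-labelled libraries, from 248.8, 238.8 and 246.1 to 169.2, 149.6 and 165.1 CPM (log2 -0.60, SE 0.0468, edgeR adjusted p = 1.16e-13). In 786-O-labelled libraries it was at 233.4, 225.8 and 233.5 CPM without IFNγ and at 200.9, 267.5 and 266.3 CPM with it (0.084, SE 0.0795, adjusted p = 0.447), and the 1 value below the controls was that of replicate 1, which stood apart. *VTCN1* had 5, 3 and 6 counts without and 0, 0 and 0 counts with IFNγ in A498-labelled libraries. A count of 0 allows up to 3 counts over the 3 libraries, or 0.0426 CPM. The observed level without IFNγ, 0.186 CPM from 14 counts, was 4.36-fold above that ceiling. This ratio leaves out the counting error of the 14 counts and the spread between libraries, so it is not a lower bound. In 786-O-labelled libraries *VTCN1* rose from 27, 18 and 24 to 50, 51 and 44 counts (log2 1.21, SE 0.203, adjusted p = 2.7e-05).

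Of the TIGIT ligands and VISTA, *NECTIN2* in 786-O-labelled libraries was the only one to pass both limits with IFNγ in Cnsi cells. *NECTIN2* was at 140.7, 139.9 and 138.2 CPM without and 198.5, 184.7 and 187.7 CPM with IFNγ in A498-labelled libraries, a difference under the threshold (log2 0.45, SE 0.0473). In 786-O-labelled libraries it rose from 112.1, 111.6 and 115.6 to 148.4, 186.9 and 183.3 CPM (log2 0.61, SE 0.0615, edgeR adjusted p = 1.79e-08). With each library left out in turn this log2 value ran from 0.551 to 0.71. *PVR* had opposite signs in the lines, with 0.21 (SE 0.039, adjusted p = 1.29e-05) and -0.31 (SE 0.0462, adjusted p = 6e-06), neither of which reached the fold threshold. *VSIR* gave 0.38 (SE 0.109, adjusted p = 0.00287) and 0.022 (SE 0.06, adjusted p = 0.811).

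**Figure D4:**
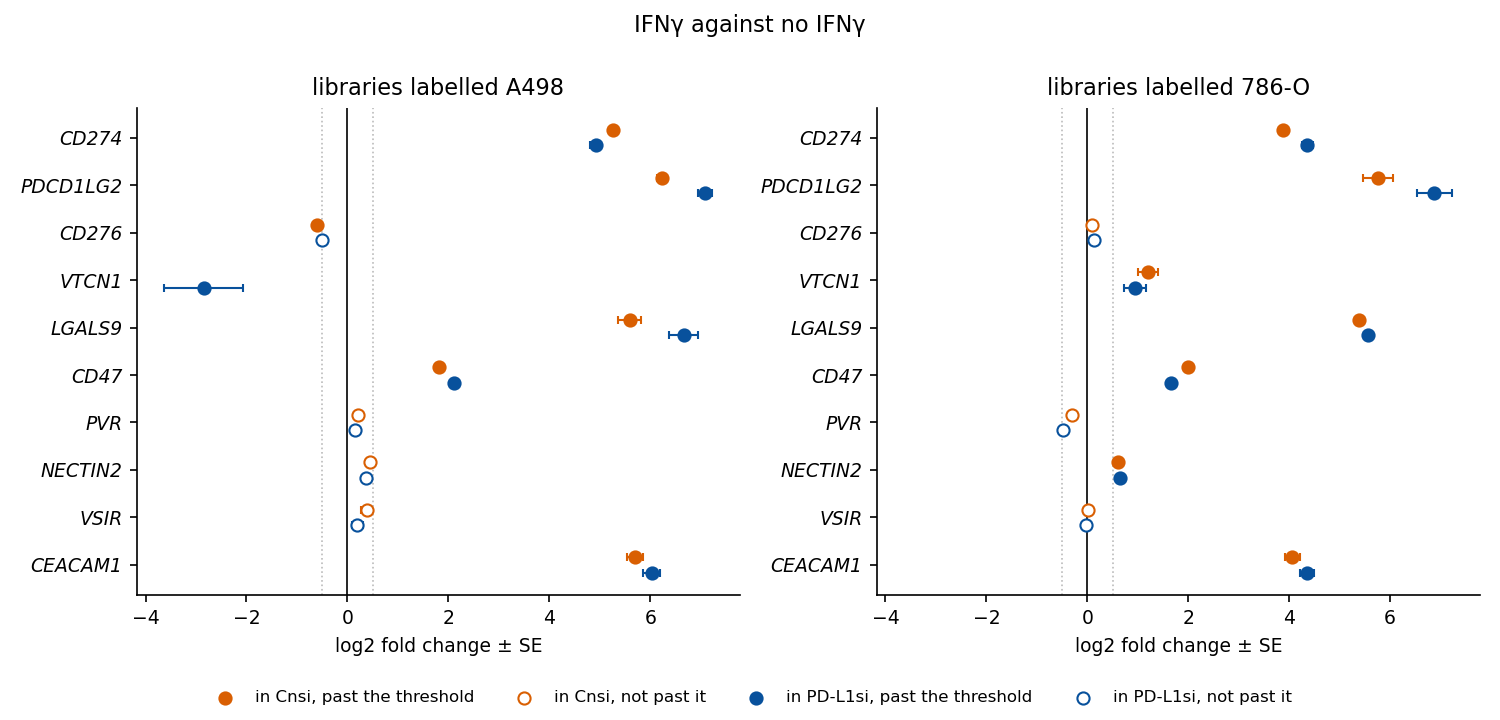
Log2 fold change of IFNγ against no IFNγ for each ligand, with its SE as the bar, in Cnsi (orange) and in PD-L1si (blue), in A498-labelled libraries (left) and 786-O (right). Filled points passed the adjusted p and the fold threshold marked by dotted lines, and *VTCN1* in Cnsi on the left is not drawn because all 3 IFNγ libraries had 0 counts. *CD274*, *PDCD1LG2*, *LGALS9*, *CD47* and *CEACAM1* are filled and to the right of 0 in both panels for both siRNAs.

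Silencing did not end the induction of any ligand. In PD-L1si cells 6 members changed with IFNγ in A498-labelled libraries, 5 higher and 1 lower, against 33.5% of all genes. The lower 1 was *VTCN1*, with only 8, 5 and 8 counts without and 1, 1 and 0 counts with IFNγ. In 786-O-labelled libraries 7 changed, all higher, against 18.4%. DESeq2 called 7 in A498-labelled and 8 in 786-O-labelled libraries, with *CD276* added in the first line and *PVR* in the second. These comparisons share no library with those in Cnsi cells. *PDCD1LG2* still rose by 7.09 (SE 0.14) and 6.88 (SE 0.343) on the log2 scale, *LGALS9* by 6.66 (SE 0.288) and 5.56 (SE 0.0879), *CEACAM1* by 6.03 (SE 0.17) and 4.36 (SE 0.14), and *CD47* by 2.12 (SE 0.0458) and 1.66 (SE 0.0495). Each of these passed the threshold. *CD276*, at -0.50 (SE 0.0471, edgeR adjusted p = 1.91e-11), lay just inside the fold threshold in A498-labelled libraries.

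Whether the size of the IFNγ effect depended on the siRNA was asked with the interaction, in which a positive value stands for a more positive IFNγ effect with PD-L1si. No member passed, against 2.45% of all genes in A498-labelled libraries and 0.099% in 786-O-labelled libraries. DESeq2 gave 0 in both as well. At an unadjusted p under 0.05 edgeR gave *PDCD1LG2* and *CD47* in the first line and *CD47* and *PVR* in the second among the 9 ligands besides *CD274*. No share of all genes at that unadjusted rule is given here. *CD47* passed the adjusted p alone in both, with opposite signs of 0.30 (SE 0.0626, edgeR adjusted p = 0.00109) and -0.34 (SE 0.0688, adjusted p = 0.0329). By that looser rule 1900 of 20916 genes passed in A498-labelled libraries and 46 of 21209 in 786-O-labelled libraries. The *CD47* value in 786-O-labelled libraries is given with all libraries, those that stood apart included. For *PDCD1LG2* the interaction was 0.87 (SE 0.331, adjusted p = 0.101) and 1.12 (SE 0.838, adjusted p = 0.782).

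The same contrast was then compared between the lines for every member, as 786-O minus A498 labels over the 17999 genes tested in both. For IFNγ in Cnsi cells 5 members differed, against 28.4% of genes, and *CD276* (0.68, SE 0.0987, edgeR adjusted p = 2.14e-06) and *CEACAM1* (-1.65, SE 0.316, adjusted p = 3.57e-05) were among them. For PD-L1si under IFNγ 3 differed, against 5.6%, which were *CD274*, *PDCD1LG2* and *LGALS9* (0.52, SE 0.12, adjusted p = 0.00172). For PD-L1si without IFNγ *CD274* and *CD47* differed (0.56, SE 0.0693, adjusted p = 1.03e-07 for *CD47*), against 4.48%. The value of *LGALS9* was close to the fold threshold and was not past it without Cnsi IFNγ replicate 1 of either line or without PD-L1si IFNγ replicate 2 of A498-labelled libraries.

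Ordered by RPKM within a condition, *CD276*, *NECTIN2*, *PVR* and *CD47* were the most abundant in Cnsi without IFNγ in both lines, at 44.6, 37.3, 25.0 and 18.7 RPKM in Cnsi of A498-labelled libraries and at 42.1, 30.2, 14.5 and 8.03 RPKM in 786-O-labelled libraries. *VSIR* followed closely in the latter with 7.80 RPKM, and its range overlapped that of *CD47*. In PD-L1si of the same line *VSIR* stood above *CD47*, at 8.93 against 8.44 RPKM, again with overlapping ranges. With IFNγ the order in A498-labelled libraries was led by *CD47* at 65.8 RPKM, then *NECTIN2* at 50.9, *CD274* at 47.1 and *PDCD1LG2* at 33.2, and *CD276* and *PVR* overlapped at 29.4 and 29.0. In 786-O-labelled libraries *NECTIN2* and *CD276* stayed first, with overlapping ranges at 46.2 and 44.7 RPKM, followed by *CD47* at 32.0, *LGALS9* at 18.6 and *CD274* at 14.7. *PDCD1LG2* was ninth of the 10 there, at 3.12 ± 0.799 RPKM. With the longest transcript as the length *PDCD1LG2* took rank 6 in place of 4 in Cnsi IFNγ of A498-labelled libraries. In Cnsi IFNγ of 786-O-labelled libraries that length put *CD276* at rank 1, *NECTIN2* at rank 2, *PVR* at rank 5 and *CD274* at rank 6. In PD-L1si without IFNγ of the same line it put *CD47* at rank 4 and *VSIR* at rank 5.

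Of 27 other ligands of immune receptors, 18 could be tested in A498-labelled libraries and 21 in 786-O-labelled libraries. With PD-L1si under IFNγ 1 rose and 1 fell in each line, against 10.1% and 3.03% of all genes called, so that the count in A498-labelled libraries was near the share of all genes. In A498-labelled libraries, *CD24*, the ligand of Siglec-10, rose (log2 1.19, SE 0.0537, edgeR adjusted p = 3.15e-16). In the same comparison *LGALS1*, galectin-1, fell (log2 -0.82, SE 0.0431, edgeR adjusted p = 3.49e-17). In 786-O-labelled libraries, *FGL1*, a ligand of LAG-3, rose (log2 0.89, SE 0.3, edgeR adjusted p = 0.0475), and *TNFSF18*, the ligand of GITR, fell (log2 -1.49, SE 0.475, edgeR adjusted p = 0.0363). DESeq2 called 0 of the 21 in this last comparison, and *TNFSF18* had 36 counts in all in Cnsi IFNγ. Without IFNγ *TNFSF9* rose (log2 0.62, SE 0.0485) in A498-labelled libraries, and *ICOSLG* (log2 -1.07, SE 0.145), *LGALS1* (log2 -0.61, SE 0.0424) and *LGALS3* (log2 -0.62, SE 0.0593) fell, which made 4 of 18 against 8.48% of all genes. In 786-O-labelled libraries 0 of 21 changed without IFNγ in edgeR and 0 in DESeq2, against 2.81% of all genes in edgeR. An unadjusted p under 0.05 was found for 6 in edgeR, a rule for which no share of all genes is given here. An adjusted p under 0.05 whatever the fold change was found for 1, against 12.8% of all genes. The median log2 change of the tested genes of this list was -0.20 under IFNγ and -0.30 without it in the first line, and -0.036 and -0.071 in the second.

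IFNγ in Cnsi cells changed 11 of the 18 other ligands tested in A498-labelled libraries, 7 higher and 4 lower, against 36.8% of all genes, and 8 of the 21 tested in 786-O-labelled libraries, 6 higher and 2 lower, against 18.5%. *TNFRSF14*, which encodes HVEM, the ligand of BTLA, rose in both, (log2 2.63, SE 0.0628) and (log2 6.83, SE 0.164). *HLA-E*, the ligand of NKG2A, rose (log2 2.69, SE 0.0387) and (log2 2.39, SE 0.0539). In A498-labelled libraries, *CD24* fell (log2 -2.82, SE 0.0561). The sign of *CD24* with PD-L1si under IFNγ was thus the reverse of its sign with IFNγ, and these comparisons share the Cnsi IFNγ libraries.

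Of 16 receptors, 5 could be tested in A498-labelled libraries and 6 in 786-O-labelled libraries, and *PDCD1*, which encodes PD-1, was in neither set. *CTLA4*, *ICOS* and *TMIGD2* were not in the count table. *SIRPA* was among the rows at 0 in 786-O-labelled libraries from which nothing is drawn. With PD-L1si under IFNγ *RGMB*, a partner of PD-L2, rose in A498-labelled libraries (log2 0.57, SE 0.0549, edgeR adjusted p = 1.62e-10), and *HAVCR2*, which encodes TIM-3, rose in 786-O-labelled libraries (log2 0.87, SE 0.292, edgeR adjusted p = 0.0476) in edgeR but was not called by DESeq2. Among 12 genes known to act on *CD274* transcription, *RELA* fell under IFNγ (log2 -0.58, SE 0.0474) and *IRF1* (log2 -0.86, SE 0.0463) and *NFKB1* (log2 -0.67, SE 0.0471) fell without it in A498-labelled libraries. In 786-O-labelled libraries *HIF1A* was the only one of 8 tested to change, (log2 -0.60, SE 0.0469) under IFNγ and (log2 -0.72, SE 0.0472) without it. *IRF1* under IFNγ was within the fold threshold in both lines (log2 -0.20, SE 0.0374) and (log2 0.053, SE 0.0471). Of 14 genes that act on the stability or processing of the ligand proteins, such as *CMTM6* and *ADAM17*, 14 were tested in the first line and 12 in the second, and edgeR called 0 with PD-L1si in each of the 4 comparisons, where 10.1% and 8.48% of all genes were called with and without IFNγ in the first line and 3.03% and 2.81% in the second. DESeq2 called 0 and 0 with and without IFNγ in the first line and 0 and 0 in the second. At an unadjusted p under 0.05, for which no share of all genes is given here, edgeR gave 11 and 7, and 5 and 6. At an adjusted p under 0.05 whatever the fold change it gave 11 and 5, and 4 and 4. The shares of all genes by that rule were 34.1% and 30.8%, and 14.0% and 12.8%.

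The genes next to *CD274* on chromosome 9 were followed because *PDCD1LG2* is one of them. Of 10 neighbors listed, both PD-1 ligands included, 8 were tested in A498-labelled libraries. Under IFNγ 4 of the 8 changed with PD-L1si, the target *CD274* among them, against 10.1% of all genes. Without IFNγ the PD-1 ligands alone changed, 2 of the 8, against 8.48%. With PD-L1si under IFNγ *PLGRKT* fell (log2 -0.68, SE 0.069, edgeR adjusted p = 4.87e-10) and *RIC1* rose (log2 0.69, SE 0.0463, edgeR adjusted p = 1.83e-14) beside the PD-1 ligands. *JAK2*, on the other side of the relaxin genes, was within the fold threshold (log2 -0.22, SE 0.058, edgeR adjusted p = 0.00294), and so was *RLN2* (log2 0.057, SE 0.593, edgeR adjusted p = 0.957). Without IFNγ *PLGRKT* was within it as well (log2 -0.37, SE 0.088). In 786-O-labelled libraries 6 were tested and *CD274* alone changed, against 3.03% of all genes under IFNγ and 2.81% without it. *PLGRKT* was not past the test there (log2 -0.32, SE 0.138, edgeR adjusted p = 0.17). *PLGRKT* itself rose with IFNγ in both, (log2 1.46, SE 0.073) and (log2 0.71, SE 0.141).

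Over the 12 libraries of a line, the genes most like *PDCD1LG2* by Pearson's r of log2 (CPM + 1), among those with a mean of at least 1 CPM, were *IFIT2* (0.999), *ITPRIP* (0.999) and *RNF19B* (0.999) in A498-labelled libraries and *IL15RA* (0.998), *NUCB1* (0.998) and *CHRNA1* (0.997) in 786-O-labelled libraries. For *CD274* they were *RND3* (0.997), *NIBAN1* (0.996) and *PHLDA3* (0.996), and *RIPK2* (0.997), *RNF114* (0.996) and *LSR* (0.995). *PDCD1LG2* itself was in place 870 of 14963 for *CD274* in A498-labelled libraries (r = 0.958) and in place 437 of 14170 in 786-O-labelled libraries (r = 0.969). These values describe libraries that share 2 levels of IFNγ and 2 siRNAs and are set mainly by the step between them. The member most like *PDCD1LG2* was *LGALS9* in both lines (0.995 and 0.994), and *PVR* was at 0.583 in the first and -0.931 in the second.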

How the data were processed

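RNA-Seq was done on 24 libraries of siRNA-transfected cells. According to the labels and the methods, the authors prepared stranded mRNA libraries, demultiplexed with bcl2fastq 2.19.0, trimmed with Trimmomatic 0.36.6, aligned to GRCh38 with HISAT2 2.1.0 and counted reads per gene with featureCounts 1.6.3 (minimum mapping quality 12, GENCODE 33). The deposited values are raw counts, and versions are those of the submitters' processing notes. Here, 39148 of 39321 genes were matched by identifier to GENCODE 44 and 173 were not. Genes reaching 10 counts in all over the 3 libraries of any group were tested with edgeR 4.0.16 (quasi-likelihood, TMM scaling, R 4.3.3), 1 mean per group, in a model of the 12 libraries of a line, or of all 24 for differences between lines. Calls needed an adjusted p under 0.05 and a log2 fold change over 0.5. CPM used TMM-scaled library sizes, and RPKM divided them by the union of exons. Replicates were numbered by the labels, but same-numbered libraries did not deviate together (correlation over 0.1 in 3 of 18 and 5 of 18 pairs), so no block was used. Total counts were 19256316 to 30350461 per library. Precision rested on this depth and on the spread between replicates, which went beyond counting noise. The reads had no molecular identifiers by which copies made in amplification could be removed. The script was tested on simulated data. Alternatives were DESeq2 1.42.0, other scaling, filters, thresholds and lengths, a replicate block and each library left out. The text names the 10 members, the list genes called with PD-L1si, *JAK2*, *RLN2* and *PLGRKT*, up to 4 genes per list with the largest IFNγ change, and the 3 genes most like each PD-1 ligand. The members and lists were chosen with earlier results of these data known.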

Additional observations from a re-analysis of the deposited data

Results flagged for a closer look

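For 8 members at least 1 contrast differed between 786-O-labelled libraries and A498-labelled libraries in edgeR's test of the difference itself (786-O minus A498, log2 scale, 3 libraries per group). Of 17999 genes tested, 28.4% differed for IFNγ in Cnsi cells, 5.6% for PD-L1si under IFNγ and 4.48% for PD-L1si without it. The share of all genes that differed in at least 1 of these contrasts is not given, so the 8 cannot be set against a background. Line and sequencing instrument cannot be told apart in these values. For IFNγ in Cnsi cells the difference was -1.37 for *CD274* (SE 0.134, adjusted p = 2.39e-11), 0.679 for *CD276* (SE 0.0987, adjusted p = 2.14e-06), -0.525 for *PVR* (SE 0.0592, adjusted p = 9.41e-10) and -1.65 for *CEACAM1* (SE 0.316, adjusted p = 3.57e-05). For *VTCN1* it was fitted at 6.64 (SE 1.07, adjusted p = 2.26e-06), a value that depends on the prior count because the Cnsi IFNγ libraries labelled A498 had 0 counts. The difference of *PVR* was close to the fold threshold and was not past it without Cnsi IFNγ replicate 1 of 786-O-labelled libraries, with a range of -0.556 to -0.481 over the libraries left out.

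For PD-L1si under IFNγ the difference was 1.87 for *CD274* (SE 0.091, adjusted p = 3.11e-18), 1.06 for *PDCD1LG2* (SE 0.152, adjusted p = 6.03e-06) and 0.517 for *LGALS9* (SE 0.12, adjusted p = 0.00172), the last with a range of 0.453 to 0.561 over the libraries left out. For PD-L1si without IFNγ it was 1.06 for *CD274* (SE 0.243, adjusted p = 0.00189) and 0.556 for *CD47* (SE 0.0693, adjusted p = 1.03e-07).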

How the results depend on the processing

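*PDCD1LG2* kept its call with PD-L1si in A498-labelled libraries under every alternative run. Without a limit on the fold, 6 and 7 members passed with PD-L1si in A498-labelled libraries with and without IFNγ, 3 and 2 in 786-O-labelled libraries, 1 and 1 for the interaction in each line, and 5 for the difference between lines under IFNγ. With a log2 limit of 1, 0 members passed with PD-L1si under IFNγ in 786-O-labelled libraries, as *CD274* was lost, and 3 and 1 for the differences between lines in IFNγ and in PD-L1si without IFNγ. These follow from the limit itself. The replicate block gave 7 in place of 6 members for IFNγ in PD-L1si cells of A498-labelled libraries, where *CD276* was gained, and changed no other count of members called within a line. Over all genes, the limit on the fold moved the counts by over 1.5 times, for PD-L1si under IFNγ to 7122 without it and 601 at 1 in A498-labelled libraries, and to 2974 and 163 in 786-O-labelled libraries. The 21 genes called for the interaction in 786-O-labelled libraries became 47 with no filter, and 8 (without PD-L1si replicate 3), 10 and 13 (without Cnsi replicates 1 and 2), 11 and 12 (without PD-L1si IFNγ replicates 1 and 2) or 39 (without Cnsi IFNγ replicate 1) with 1 library left out. DESeq2 added *CD276* and *PVR* for IFNγ in PD-L1si cells of A498-labelled and 786-O-labelled libraries, respectively.

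Values that changed sign were all uncalled and in 786-O-labelled libraries or in the difference between lines, and the cause was not tested. With the groups compared alone, *VSIR* was at -0.00252 for IFNγ in Cnsi and -0.00567 for the difference between lines under IFNγ, and with no filter *NECTIN2* was at -0.005 for PD-L1si without IFNγ. Over the libraries left out in turn, *VSIR* ran from -0.0183 to 0.0936 for IFNγ in Cnsi and from -0.0655 to 0.0699 for the difference between lines. For PD-L1si under IFNγ, *PDCD1LG2* ran from -0.304 (without Cnsi IFNγ replicate 1) to 0.0284 (without Cnsi IFNγ replicate 2), *CD276* from -0.0114 to 0.182 and *NECTIN2* from -0.0607 to 0.0988, and the interactions of the latter pair ran from -0.0717 to 0.122 and from -0.0616 to 0.0979. For PD-L1si without IFNγ, *VTCN1* ran from -0.199 to 5.66e-05, *LGALS9* from -0.188 to 0.0353, *NECTIN2* from -0.008 to 0.0178 and *CEACAM1* from -0.288 to 0.077. Filtering by edgeR's own rule left no value for *VTCN1* in A498-labelled libraries.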
